A study of Mus musculus with 18 samples.

Results

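The Myc, Max and Mxd network was followed in 18 libraries of mouse haematopoietic progenitors. Its 10 members, Myc, Mycn, Mycl1, Max, Mxd1, Mxd3, Mxd4, Mxi1, Mnt and Mga, were chosen by name (the tables write them in capitals as MYC, MYCN, MYCL1, MAX, MXD1, MXD3, MXD4, MXI1, MNT and MGA), and all 10 had a row among the 25629 rows of each of the 2 deposited gene tables. Myc, Mycn and Mycl1 (now named Mycl) are basic helix-loop-helix leucine zipper factors that bind DNA as partners of Max and chiefly activate genes of growth, ribosome assembly and metabolism. The Mxd proteins and Mnt compete for Max and bring the Sin3 and histone deacetylase corepressors to the same E-box sites, while Mga joins Max in a variant Polycomb complex. In blood formation, Myc is known for its part in the balance between self-renewal and differentiation of stem cells, and the Mxd genes for their rise as myeloid cells mature.

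The cells were LSK cells (marrow cells without lineage markers that carry cKit and Sca1, a fraction that holds the stem cells) of C57Bl/6 mice. Freshly sorted cells, pooled from 3 mice per library, came from control mice or from mice given 2.5 Gy and left to recover for at least 9 weeks. For the cultures, 200 LSK cells of 1 mouse, control or irradiated, were grown for 6 days in SCF, Flt3L, IL-11 and IL-6, without or with DL1, and LSK cells were then sorted from the culture once more. The labels do not spell out DL1, the usual abbreviation of the Notch ligand Delta-like 1, or say how it was given. The 6 groups (fresh control, fresh irradiated, culture control, culture irradiated, control with DL1, irradiated with DL1) had 3 libraries each, and every cultured library had been through the same cytokines. The p-values measure the spread between these libraries. The series sets C/EBPα against Notch, as its title says.

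Levels were deposited as FPKM, fragment numbers divided by transcript length and by the size of the library, so they can be set side by side between genes. The absolute number of fragments is unknown. From the steps between low values, the relative depth of the fresh libraries was 0.645 to 1 and that of the cultured libraries 0.756 to 1.09, with irradiated DL1 replicate 2 at 0.488. Kit lay at 97.5 to 119 FPKM in the fresh and 31.6 to 40.2 in the cultured libraries, and Ly6a, which encodes Sca1, at 110.2 to 211 and 432 to 628. Markers of mature myeloid cells were present in the re-sorted cultures and differed between groups. In bulk RNA, fewer cells of a type and less RNA per cell cannot be told apart. The summed level of 14 macrophage markers was 2218 to 3249.8 FPKM in culture control, 4379 to 6647 in culture irradiated, 588 to 794 in control with DL1 and 1031 to 1298 in irradiated with DL1, against 435 to 725 and 451 to 810.4 in fresh control and irradiated cells. How the 2 tables were scaled to each other is not given in the sources used here, so fresh and cultured cells were not tested against each other.

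Myc was the member with the highest mean level in each of the 6 groups, and Max followed it. In the 3 fresh control libraries, Myc stood at 244, 214 and 225 FPKM and Max, the shared partner, at 106, 119.7 and 109 FPKM. In culture control, Myc was listed at 152, 160.3 and 145 FPKM and Max at 55.96, 55.8 and 55.5 FPKM. The levels of Myc did not overlap those of Max in any group. Myc lay above 97.4% of the tested genes in the fresh table and above 94.2% in the cultured table, and Max above 94.6% and 84.5%.

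The paralogues of Myc were far lower. Mycn, known for acting beside Myc in stem cells, stood at 15.9, 14.2 and 19.3 FPKM in fresh control and at 0.785, 1.09 and 0.829 FPKM in culture control. Mycl1, the gene of L-Myc, known from dendritic cells, was listed at 0.345, 0.909 and 0.352 FPKM in fresh control and 0.155, 0.109 and 0.256 in culture control. Mycl1 had the lowest mean of the 10 in each group. By its mean over all libraries of the fresh table, 16.5 FPKM, Mycn lay near the middle, above 62.6% of tested genes. Its mean over all cultured libraries, those with DL1 included, was 3.56 FPKM, above only 16.6% of tested genes. The culture control libraries alone lay well under that mean.

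Mga, the largest protein of the network, came after Max in fresh cells, with 24.2, 24.3 and 26.8 FPKM in control and 24.6, 22.5 and 23.9 in irradiated libraries. In the 12 cultured libraries its group means lay between 9.14 and 9.41 FPKM. The 4 Mxd genes and Mnt formed a middle band in both tables. In fresh control their means ran from 4.33 ± 0.952 FPKM for Mxd3 (SD, n = 3) to 10.9 ± 0.877 for Mxd1. The libraries of Mxd1 and Mnt (10.8 ± 0.28 FPKM) overlapped there, as did those of Mxi1 (9.17 ± 1.11) and Mxd4 (8.58 ± 0.504). In culture control the band ran from 7.86 ± 0.504 FPKM for Mxd3 to 13.9 ± 1.41 for Mxd1. Overlap with the next gene in the order was seen for Mxd1 with Mnt and for Mga with Mxd4.

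**Figure D1:**
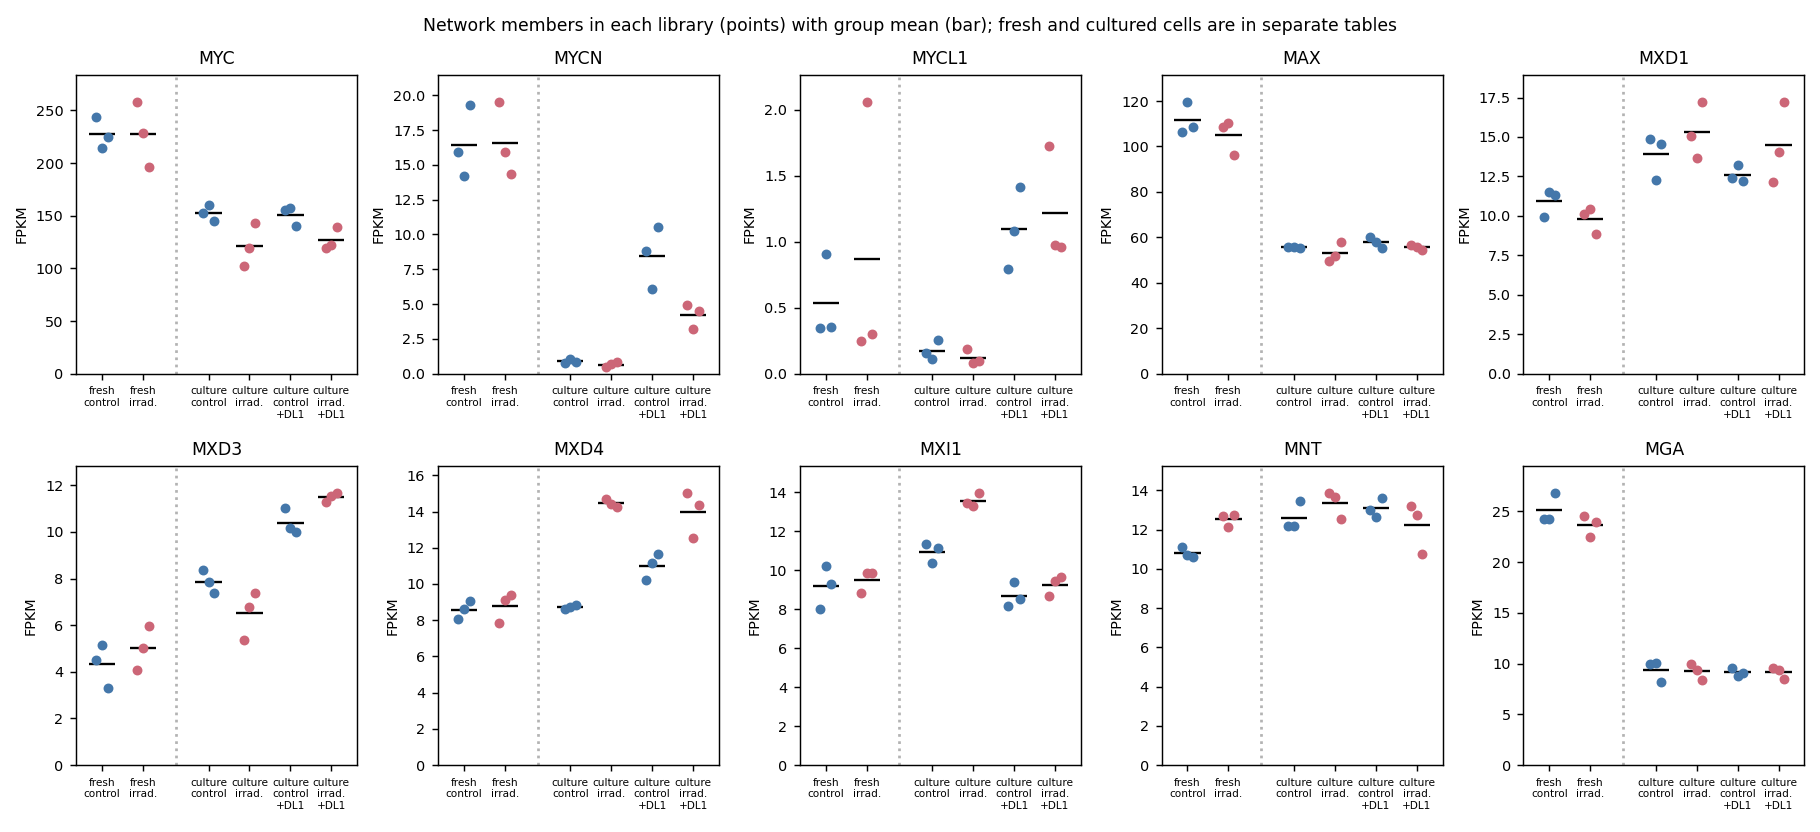
FPKM of the 10 members (y axis, linear, from 0) in each of the 18 libraries, grouped along the x axis, with points for libraries and bars for group means. Mycn is low in the cultures without DL1 and higher in those with DL1, and Mxd4 is higher in the irradiated than in the control cultures without DL1.

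Recovery from irradiation was first compared in freshly sorted cells, where no member passed the test. A gene was called when its adjusted p from limma, on log2(FPKM + 1) and over all tested genes of the table, was under 0.05. Of the 9 members tested, 0 were called, beside 0.101% of all tested genes, and 886 genes (6.87%) had an unadjusted p under 0.05. Mycl1, whose mean was under 1 FPKM, was not tested. Myc stood at 258, 228 and 197 FPKM in the irradiated libraries, which overlapped the control libraries. The estimated change of Myc on the log2 scale was -0.0069 ± 0.11 (± SE, as for every log2 difference in parentheses), with a 95% interval of -0.26 to 0.25. For Mycn, at 19.5, 15.9 and 14.3 FPKM after irradiation, the interval was -0.31 to 0.33.

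Mnt, the widely expressed antagonist of Myc, was the only member whose fresh groups did not overlap. It stood at 11.1, 10.7 and 10.6 FPKM in control and 12.7, 12.1 and 12.7 FPKM in irradiated cells, a difference of 0.20 ± 0.078 with an unadjusted p of 0.0342 and an adjusted p = 0.672 in limma. Groups did not overlap for 12.7% of all tested genes. The intervals for the Mxd genes were -0.37 to 0.085 for Mxd1, -0.20 to 0.57 for Mxd3, -0.20 to 0.25 for Mxd4 and -0.19 to 0.29 for Mxi1. Mycl1 reached 2.06 FPKM in irradiated replicate 2, while the other 2 irradiated libraries were at 0.246 and 0.303 FPKM.

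In the cultures without DL1, Mxd4 and Mxi1 were higher and Myc was lower in cells from irradiated mice. These were 2 members called higher and 1 called lower of 9 tested, where 29.7% of all tested genes were called (13.8% higher and 15.9% lower). Mxd4, which encodes a Max partner that represses transcription and is known from differentiating cells, stood at 8.64, 8.72 and 8.86 FPKM in control and 14.7, 14.4 and 14.2 FPKM in irradiated cultures. The 3 irradiated libraries were all above the 3 control libraries, by 1.65 times in the mean (0.67 ± 0.066, adjusted p = 1.09e-04). Mxi1, also called Mxd2, stood at 11.3, 10.4 and 11.1 and 13.5, 13.3 and 13.96 FPKM. Its groups were likewise apart, with a ratio of 1.24 (0.29 ± 0.062, adjusted p = 0.00601).

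Myc was at 102, 119 and 143 FPKM in the irradiated cultures. The highest of these lay just under the lowest control library, so the groups were apart by a small margin, and replicate 1 was the lowest. The mean was 0.796 times that of control (-0.34 ± 0.10, adjusted p = 0.0276). The call was lost when any of 4 libraries was left out: the adjusted p was 0.0992 without control replicate 2 and 0.104 without irradiated replicate 1, the fit without the latter giving -0.22. It was also lost without control replicate 1 (0.0664) and without irradiated replicate 2 (0.0715). For all tested genes, 38.1% had groups that did not overlap.

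Of the remaining members, Mxd3, known from cells in the S phase of the cycle, came nearest to the threshold (-0.25 ± 0.088, adjusted p = 0.052). It stood at 8.38, 7.83 and 7.38 FPKM in control and 5.36, 6.77 and 7.39 in irradiated cultures, which overlap in a single library. Without irradiated replicate 3, Mxd3 had an adjusted p of 0.00929 and Max 0.0348, and 5 members were then called. Max (-0.07 ± 0.056, adjusted p = 0.371), Mxd1 (0.13 ± 0.11, adjusted p = 0.42), Mnt (0.077 ± 0.074, adjusted p = 0.461) and Mga (-0.021 ± 0.082, adjusted p = 0.87) were not called with all libraries. Mycn stood at 0.454, 0.67 and 0.83 FPKM, near 1 FPKM or below in all 6 of these libraries (-0.21 ± 0.17, adjusted p = 0.39).

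The promoter of Mxd4 is printed because this gene had the largest log2 difference of the 9 tested members in that comparison, and that of Mnt because it is the other member with the canonical Myc and Max E-box upstream of its start. The RefSeq promoter table (GRCm38.p6) matched 9 of the 10 members, with 11 promoters. The letters CACGTG (its own reverse complement, so both strands are covered) were found in the 250 bases before the start of 2 members, and in 6.02% of all 32851 promoters of that length. The Mxd4 sequence is chr5:34187721-34187960 on the minus strand, and the Mnt sequence is chr11:74830674-74830919 on the plus strand, both 5′ to 3′ with CACGTG in capitals, 219 and 123 bases before the start.
Mxd4: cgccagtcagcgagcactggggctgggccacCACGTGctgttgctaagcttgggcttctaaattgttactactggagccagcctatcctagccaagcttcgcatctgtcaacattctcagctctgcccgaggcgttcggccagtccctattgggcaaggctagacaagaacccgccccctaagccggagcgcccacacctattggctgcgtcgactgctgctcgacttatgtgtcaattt
Mnt: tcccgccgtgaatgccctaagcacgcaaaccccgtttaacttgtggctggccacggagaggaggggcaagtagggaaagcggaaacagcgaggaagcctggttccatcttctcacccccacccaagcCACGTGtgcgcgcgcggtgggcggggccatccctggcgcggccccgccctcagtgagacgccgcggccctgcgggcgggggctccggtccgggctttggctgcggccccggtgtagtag
The files hold no binding data, and a match of letters is a description of the sequence. Mxd4 was called in this comparison and Mnt was not.

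With DL1 in both groups, irradiation was set against control once more, and Mycn was lower and Mxd4 higher in the irradiated cultures. These were 1 member called lower and 1 called higher of 9 tested, against 3.14% of all tested genes (2.50% higher and 0.640% lower). Mycn stood at 8.81, 6.12 and 10.5 FPKM in control with DL1 and 4.93, 3.18 and 4.52 FPKM in irradiated with DL1. Every irradiated library lay below every control library, and the control mean was 2.01 times the irradiated mean (-0.85 ± 0.17, adjusted p = 0.0214). Mxd4 stood at 10.2, 11.1 and 11.7 and 15.02, 12.5 and 14.3 FPKM, also without overlap, with a ratio of 1.27 (0.32 ± 0.066, adjusted p = 0.0244).

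Neither call held in every fit that left out a library. Mycn had an adjusted p of 0.0983 without control DL1 replicate 1, 0.0939 without control DL1 replicate 3 and 0.0979 without irradiated DL1 replicate 2, the shallowest library. Mxd4 had one of 0.127 without control DL1 replicate 1, 0.06 without control DL1 replicate 2, 0.103 without irradiated DL1 replicate 1 and 0.0725 without irradiated DL1 replicate 3. Myc stood at 155, 158 and 140.2 FPKM in control with DL1 and 119, 122 and 139.6 in irradiated with DL1. Its groups were apart by less than 1 FPKM and it was not called (-0.25 ± 0.10, adjusted p = 0.22). Mxd3 groups were apart as well, at 11.03, 10.2 and 9.996 and 11.3, 11.6 and 11.7 FPKM, with no call (0.13 ± 0.088, adjusted p = 0.438). Non-overlapping groups were found for 33.1% of all tested genes. Mxi1 (0.083 ± 0.062, adjusted p = 0.501), Mxd1 (0.17 ± 0.11, adjusted p = 0.435), Mnt (-0.094 ± 0.074, adjusted p = 0.523), Max (-0.054 ± 0.056, adjusted p = 0.628) and Mga (-0.0021 ± 0.082, adjusted p = 0.99) were not called.

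DL1 was compared with no DL1 within the control cultures. Mycn, Mxd3 and Mxd4 rose and Mxi1 fell, that is 3 members higher and 1 lower of 9 tested, where 26.2% of all tested genes were called (13.9% higher and 12.3% lower). Mycn went from 0.785, 1.09 and 0.829 FPKM without DL1 to 8.81, 6.12 and 10.5 FPKM with it. All 3 DL1 libraries were far above the 3 without, and the ratio of means was 9.4 (2.29 ± 0.17, adjusted p = 2.77e-06). On the log2(FPKM + 1) scale the fold of such a low gene is understated. Mycn passed the filter of 1 FPKM in the cultured table only through the DL1 libraries, so a gene like it had to differ to be tested there.

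Mxd3 stood at 11.03, 10.2 and 9.996 FPKM with DL1, above all 3 control libraries (0.36 ± 0.088, adjusted p = 0.00944). Mxd3 overlaps Prelid1 on the other strand, and whether the counting used strand is not stated, so the share of Prelid1 in its level is unknown. Prelid1 stood far higher, at a mean of 346 FPKM without and 361 with DL1 in control cultures, and at 354 and 367 in irradiated cultures. It was not called in any of the 5 comparisons between groups. At such a level, an uncalled shift can be as large as the Mxd3 difference. The part of Prelid1 in the Mxd3 values was not tested. Mxd4, which overlaps an antisense transcript, was 1.26 times higher with DL1 (0.30 ± 0.066, adjusted p = 0.00484), at 10.2, 11.1 and 11.7 FPKM. Mxi1, which overlaps 2 gene models on the other strand, stood at 8.15, 9.42 and 8.53 FPKM, below each control library without DL1 (-0.30 ± 0.062, adjusted p = 0.00342).

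Myc did not differ detectably with DL1 in control cultures (-0.016 ± 0.10, adjusted p = 0.928). The 95% interval of its change was -0.24 to 0.21, and the libraries overlapped. Mycl1 was not tested, but its 0.795, 1.08 and 1.41 FPKM with DL1 lay above the 0.155, 0.109 and 0.256 without it, a ratio of 6.33. In a fit with no filter on low values, Mycl1 changed by 0.83 on the log2 scale with an adjusted p of 0.002. Max (0.052 ± 0.056, adjusted p = 0.531), Mxd1 (-0.13 ± 0.11, adjusted p = 0.443), Mnt (0.049 ± 0.074, adjusted p = 0.662) and Mga (-0.034 ± 0.082, adjusted p = 0.799) were not called. Including Mycl1, 4 members were apart and higher and 1 apart and lower, where 48.3% of all tested genes had groups that did not overlap.

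The Mycn promoter is shown because Mycn had the largest log2 difference with DL1 of the 9 tested members in both cultures. Upstream of its start lies a pair of TTTGGCGC letters, a form of the E2F site, 183 and 168 bases before the start, in capitals in the sequence. It is chr12:12941915-12942086 on the minus strand of GRCm38.p6, from the RefSeq table, 5′ to 3′.
Mycn: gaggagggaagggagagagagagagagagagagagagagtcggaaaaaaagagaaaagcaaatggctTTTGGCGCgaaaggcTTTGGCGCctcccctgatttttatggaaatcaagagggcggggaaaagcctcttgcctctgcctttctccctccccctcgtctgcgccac
Searched on both strands of the 250 bases before the start, TTTGGCGC was found in 0.417% of all promoters. Another form of the E2F site, TTTCCCGC, was searched as well and found before no matched member, and in 0.895% of all promoters. The GC box letters GGGCGG, also searched, were found before 8 of the 9 matched members, Mycn among them, and in 32.7% of all promoters. The core letters TGGGAA of the Rbpj site, through which Notch acts, were found before Mxd3 and Mxi1 of the 9 matched members and in 21.6% of all promoters. They were not among the letters of this Mycn window, which says nothing of sites elsewhere.

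DL1 was then compared with no DL1 within the irradiated cultures. Here 2 members rose (Mycn and Mxd3) and 1 fell (Mxi1) of 9 tested, where 41.4% of all tested genes were called (24.4% higher and 17.0% lower). Mycn went from 0.454, 0.67 and 0.83 to 4.93, 3.18 and 4.52 FPKM, a ratio of 6.47 (1.65 ± 0.17, adjusted p = 1.55e-05). Here too, Mycn was tested only because the DL1 libraries lifted its mean over the filter of 1 FPKM. Mxd3 went from 5.36, 6.77 and 7.39 to 11.3, 11.6 and 11.7 FPKM (0.75 ± 0.088, adjusted p = 4.41e-05). Mxi1 went from 13.5, 13.3 and 13.96 to 8.67, 9.45 and 9.67 FPKM, the level without DL1 being 1.47 times that with it (-0.51 ± 0.062, adjusted p = 5.65e-05). The libraries with and without DL1 did not overlap for any of these 3 genes.

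Mxd4 stood at 14.7, 14.4 and 14.2 FPKM without and 15.02, 12.5 and 14.3 FPKM with DL1, which overlap (-0.05 ± 0.066, adjusted p = 0.558). Myc had an interval of -0.15 to 0.30 for its change (0.074 ± 0.10, adjusted p = 0.586). Mycl1, untested, was at 0.185, 0.0802 and 0.098 and 1.72, 0.974 and 0.962 FPKM, 10.1 times higher in the mean, and with no filter it changed by 0.97 (adjusted p = 5.79e-04). Max (0.068 ± 0.056, adjusted p = 0.343), Mxd1 (-0.083 ± 0.11, adjusted p = 0.577), Mnt (-0.12 ± 0.074, adjusted p = 0.203) and Mga (-0.015 ± 0.082, adjusted p = 0.9) were not called, but Max passed without irradiated replicate 3 (adjusted p = 0.0306). Including Mycl1, 3 members were apart and higher and 1 apart and lower, against 48.3% of all tested genes.

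**Figure D2:**
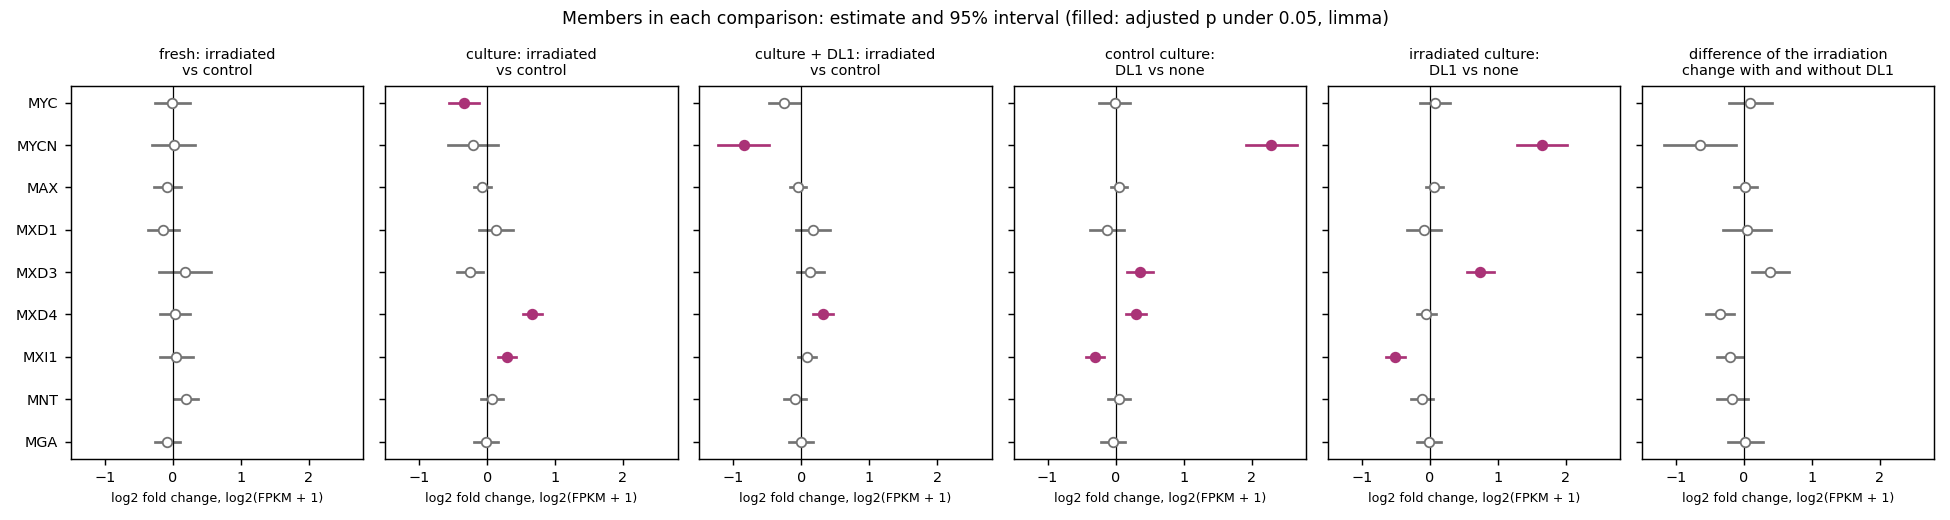
Estimated log2 fold change (x axis, on log2(FPKM + 1)) of the 9 tested members (y axis) in the 6 comparisons, with 95% intervals and filled points where the adjusted p from limma was under 0.05. The last panel is the interaction of irradiation and DL1. The intervals of Myc include 0 in both DL1 comparisons, and Mycn is far to the right in both.

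Whether the response to irradiation differed with DL1 was tested by the interaction in the same limma fit. None of the 9 tested members was called, beside 0.0748% of all tested genes, while 10.4% of all tested genes had an unadjusted p under 0.05. Of the members, 4 had an unadjusted p under 0.05. These were Mxd4 (-0.35 ± 0.093, unadjusted p = 0.00256, adjusted p = 0.211), Mxd3 (0.38 ± 0.13, unadjusted p = 0.00991, adjusted p = 0.321), Mycn (-0.64 ± 0.24, unadjusted p = 0.0207, adjusted p = 0.388) and Mxi1 (-0.21 ± 0.088, unadjusted p = 0.0373, adjusted p = 0.445). A call with DL1 and none without it, as for Mycn, is thus no difference that passed a test.

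As a measure of the balance between activator and repressor messages, Myc was divided by the sum of Mxd1, Mxd3, Mxd4 and Mxi1 in each library, with no test since the members were chosen together. The ratio was 6.95 ± 0.988 (SD, n = 3) in fresh control and 6.92 ± 1.32 in fresh irradiated cells, which overlap. In culture it was 3.69 ± 0.346 in control and 2.43 ± 0.303 in irradiated cells. The library ranges, 3.46 to 4.09 and 2.11 to 2.71, did not overlap. With DL1 it was 3.54 ± 0.211 in control and 2.58 ± 0.0559 in irradiated cells, with ranges of 3.31 to 3.72 and 2.53 to 2.64. The summed Mxd level was 39.2 to 43.2 FPKM in culture control and 48.2 to 52.8 in culture irradiated libraries, and 41.8 to 43.96 and 47.1 to 52.9 with DL1. The 3 irradiated libraries without DL1 were all above the 3 controls in that sum. Mxd4 made up 19.99 to 22.2% of the Mxd sum in control and 26.96 to 30.3% in irradiated cultures. With DL1 it made up 24.5 to 27.5% in control and 26.3 to 31.9% in irradiated cultures, which overlap.

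**Figure D3:**
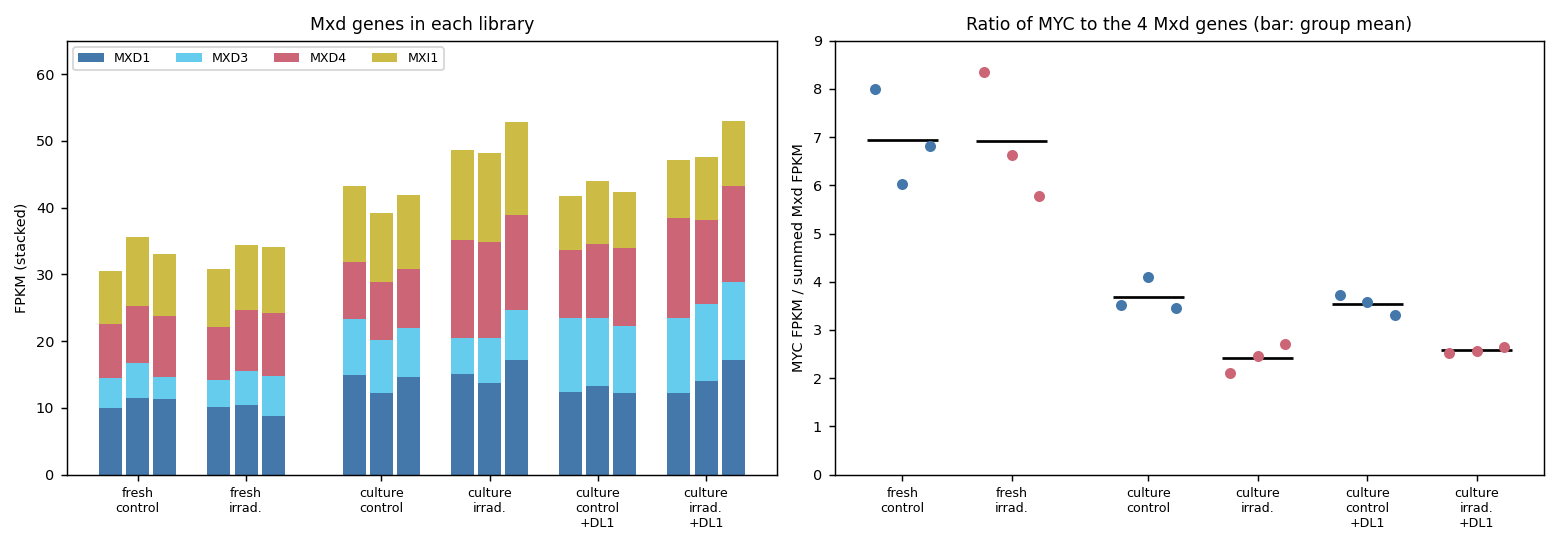
Left: FPKM of Mxd1, Mxd3, Mxd4 and Mxi1 stacked for each library (y axis from 0). Right: Myc FPKM divided by the summed Mxd FPKM for each library, with bars for group means. The 3 irradiated cultures lie below the 3 control cultures both without and with DL1, and the fresh groups overlap.

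The genes that work with the network were taken next, from lists of known partners, regulators and targets, with group means ± SD in FPKM. The Mlx branch runs beside the network, with Mlx in the place of Max and Txnip and Arrdc4 as glucose-responsive targets. Its genes rose in irradiated cultures without DL1 for 3 of 4 tested genes (5 listed, median 0.37, beside -0.026 over all tested genes), against 13.8% of all tested genes: Mlx from 26.3 ± 1.3 to 34.9 ± 0.199 FPKM (0.39 ± 0.046, adjusted p = 2.80e-04), Txnip from 99.2 ± 3.43 to 131 ± 19.5 FPKM (0.38 ± 0.11, adjusted p = 0.021) and Arrdc4 from 6.02 ± 0.852 to 7.97 ± 1.2 FPKM (0.35 ± 0.11, adjusted p = 0.031). The count was 1 without control replicate 2, irradiated replicate 1 or irradiated replicate 2. In irradiated cultures these 3 genes fell with DL1, beside 17.0% of all tested genes called lower: Txnip from 131 ± 19.5 to 86.6 ± 10.5 FPKM (-0.58 ± 0.11, adjusted p = 0.00122), Mlx (-0.20 ± 0.046, adjusted p = 0.00411) and Arrdc4 (-0.35 ± 0.11, adjusted p = 0.0219). In control cultures 0 of 4 were called with DL1 by limma. With DL1 in both groups, irradiated cultures had 1 of 4 called higher, Mlx (0.25 ± 0.046, adjusted p = 0.0159), beside 2.50% of all tested genes called higher. The count was 0 without control DL1 replicate 1, control DL1 replicate 3 or irradiated DL1 replicate 1.

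The Sin3 and histone deacetylase corepressors, which the Mxd proteins and Mnt recruit, fell for 4 of 13 in irradiated cultures without DL1 (median -0.12, beside -0.026 over all tested genes), against 15.9% of all tested genes called lower. The lowest adjusted p values were those of Hdac2 (-0.30 ± 0.058, adjusted p = 0.00333), Rbbp7 (-0.35 ± 0.072, adjusted p = 0.00494) and Hdac1 (-0.19 ± 0.053, adjusted p = 0.0188). The count was 2 without control replicate 2 or irradiated replicate 1. With DL1, 4 of 13 rose in control cultures, beside 13.9% of all tested genes called higher. The count was 0 without control replicate 1 or control DL1 replicate 3, 1 without control replicate 2 or control DL1 replicate 1 and 2 without control DL1 replicate 2. In irradiated cultures 8 of 13 rose with DL1 (median 0.16, beside 0.061 over all tested genes), against 24.4% of all tested genes. Examples were Hdac1 (0.29 ± 0.053, adjusted p = 0.00112), Hdac2 (0.26 ± 0.058, adjusted p = 0.00354) and Rbbp4 (0.22 ± 0.053, adjusted p = 0.00552). The count was 4 without irradiated replicate 2 or irradiated DL1 replicate 3 and 5 without irradiated replicate 1 or irradiated DL1 replicate 1.

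Coactivators and cofactors of Myc, such as the TIP60 and SWI/SNF subunits, were 17 in number. In irradiated cultures without DL1, 4 of 17 fell (median -0.09), beside 15.9% of all tested genes called lower. The 4 included Ruvbl1 (-0.25 ± 0.076, adjusted p = 0.0272), Ruvbl2 (-0.24 ± 0.077, adjusted p = 0.0323) and Actl6a (-0.24 ± 0.057, adjusted p = 0.00954). The count was 1 without control replicate 2, irradiated replicate 1 or irradiated replicate 2 and 7 without irradiated replicate 3. With DL1, 1 of 17 rose in control cultures (Smarcb1), beside 13.9% of all tested genes called higher. The count was 0 without control replicate 1, control replicate 2, control DL1 replicate 1 or control DL1 replicate 3 and 2 without control replicate 3. In irradiated cultures 4 of 17 rose with DL1 (median 0.14, beside 0.061 over all tested genes), beside 24.4% of all tested genes called higher. The count was 2 without irradiated replicate 2, irradiated DL1 replicate 1 or irradiated DL1 replicate 3 and 7 without irradiated replicate 3. With the replicate number as a block and only these 2 groups in the fit, 2 of 17 rose. Genes that set the turnover of the Myc protein fell for 3 of 18 tested in irradiated cultures (20 listed, median -0.12), beside 15.9% of all tested genes called lower: Set (-0.45 ± 0.067, adjusted p = 9.01e-04), an inhibitor of the phosphatase that destabilises Myc, Aurka (-0.39 ± 0.069, adjusted p = 0.00223), a kinase, and Usp36 (-0.26 ± 0.069, adjusted p = 0.0163), a nucleolar deubiquitinase. The count was 5 without control replicate 3 or irradiated replicate 3. In irradiated cultures with DL1, 7 of 18 rose and 1 fell (median 0.10), beside 24.4% of all tested genes called higher and 17.0% called lower. The call of the gene that fell was lost with the replicate block, and in each fit without 1 of the 6 libraries other than irradiated replicate 3. Those that rose included Aurka (0.38 ± 0.069, adjusted p = 9.64e-04), Usp36 (0.26 ± 0.069, adjusted p = 0.0111) and Set (0.22 ± 0.067, adjusted p = 0.0217). Fbxw7, the ubiquitin ligase subunit that recognises Myc, was also among them, from 4.54 ± 0.24 to 5.73 ± 0.209 FPKM (0.28 ± 0.074, adjusted p = 0.0101). The count that rose was 4 without irradiated replicate 1, irradiated DL1 replicate 1 or irradiated DL1 replicate 2. In control cultures with DL1, 4 of 18 rose and 1 fell, beside 13.9% of all tested genes called higher and 12.3% called lower. The count that rose was 2 without control DL1 replicate 1 or control DL1 replicate 3. The call of the gene that fell was lost without control replicate 1 or control DL1 replicate 2.

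Mga did not pass the test in any comparison, but some of its partners in the variant Polycomb complex did. In irradiated cultures without DL1, 5 of 9 fell (median -0.16), beside 15.9% of all tested genes called lower. The 5 included Cbx3 (-0.41 ± 0.064, adjusted p = 0.00121), Rybp (-0.21 ± 0.048, adjusted p = 0.00845) and Pcgf6 (-0.43 ± 0.10, adjusted p = 0.0103). The count was 3 without control replicate 2, irradiated replicate 1 or irradiated replicate 2. In control cultures 2 of 9 fell with DL1, Rybp (-0.31 ± 0.048, adjusted p = 4.41e-04) and Yaf2 (-0.21 ± 0.06, adjusted p = 0.0244), beside 12.3% of all tested genes called lower. The count was 1 without control replicate 1, control replicate 2, control DL1 replicate 2 or control DL1 replicate 3. In irradiated cultures 2 of 9 rose with DL1 (Pcgf6 and Cbx3) and 1 fell (Yaf2), beside 24.4% of all tested genes called higher and 17.0% called lower. The count was 4 without irradiated replicate 3. With DL1 in both groups, 1 of 9 was called, the ubiquitin ligase gene Rnf2 (-0.22 ± 0.05, adjusted p = 0.0362), lower in irradiated cultures, beside 0.640% of all tested genes called lower. The count was 0 without any 1 of the 6 libraries.

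Genes known as activated targets of Myc fell in large number in irradiated cultures without DL1. Of 55 tested (56 listed), 43 fell and 0 rose, beside 15.9% of all tested genes that were called lower, and their median was -0.28. Examples were the amino acid transporter gene Slc7a5 from 96.6 ± 1.48 to 72.2 ± 4.34 FPKM (-0.42 ± 0.051, adjusted p = 3.39e-04), the nucleolin gene Ncl from 332 ± 20.3 to 244 ± 26.3 FPKM (-0.45 ± 0.07, adjusted p = 0.00118) and the ribosome assembly gene Wdr43 from 63.2 ± 3.74 to 48.4 ± 4.34 FPKM (-0.38 ± 0.062, adjusted p = 0.00147). The count was 23 without control replicate 2 and 28 without irradiated replicate 1. Known repressed targets of Myc rose for 6 of 9 tested (12 listed, median 0.29), beside 13.8% of all tested genes. The count was 1 without control replicate 2, 2 without irradiated replicate 1 and 3 without control replicate 1. The 6 included the gene of the granulocyte regulator C/EBPα, Cebpa from 51.7 ± 3.15 to 76.6 ± 3.36 FPKM (0.56 ± 0.083, adjusted p = 9.06e-04), the stress gene Gadd45b (0.29 ± 0.07, adjusted p = 0.0105) and the receptor gene Tgfbr2 (0.37 ± 0.096, adjusted p = 0.0141). Cell cycle genes fell for 20 of 22 (median -0.28), beside 15.9% of all tested genes called lower, with the smallest adjusted p for Ccne1 (-0.55 ± 0.071, adjusted p = 4.21e-04), Mki67 (-0.52 ± 0.071, adjusted p = 6.24e-04) and Top2a (-0.44 ± 0.062, adjusted p = 6.66e-04). The count was 11 without control replicate 2.

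Beside these lists, all 14 macrophage markers and 12 of 13 granulocyte markers tested rose in the same comparison, beside 13.8% of all tested genes called higher, with granulocyte sums of 4795 to 5505 FPKM in control and 8490.3 to 11034 FPKM in irradiated cultures. Irradiated replicate 1 had the highest macrophage sum of its group, and irradiated replicate 3, with the highest Myc level, the lowest. The part of these markers in the results for Myc, the Mxd genes and the targets was not tested.

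In freshly sorted cells the same lists gave no called gene in limma: 0 of 56 activated targets (median 0.038), 0 of 10 repressed targets (0.11) and 0 of 22 cell cycle genes (0.13, of which 19 had a positive estimate), beside 0.101% of all tested genes called. With DL1 in both groups, irradiation was followed by 1 call among 55 activated targets, a lower level of the nucleotide synthesis gene Prps2 (-0.20 ± 0.05, adjusted p = 0.0495), beside 0.640% of all tested genes called lower. That call was lost in each fit that left out 1 of these libraries. The median there was -0.13, with 2 of 9 repressed targets called higher, Cebpa from 43.1 ± 1.79 to 57.9 ± 7.93 FPKM (0.41 ± 0.083, adjusted p = 0.0228) and Gadd45a (0.32 ± 0.069, adjusted p = 0.0293), beside 2.50% of all tested genes called higher. The count was 0 without control DL1 replicate 1, control DL1 replicate 3 or irradiated DL1 replicate 2 and 1 without control DL1 replicate 2, irradiated DL1 replicate 1 or irradiated DL1 replicate 3. Of 22 cell cycle genes 0 were called in limma (median -0.085), beside 3.14% of all tested genes called. The macrophage markers rose for 5 of 14 and the granulocyte markers for 11 of 13 in that comparison, against the same 2.50% of all tested genes. The macrophage count was 0 without control DL1 replicate 1, irradiated DL1 replicate 1 or irradiated DL1 replicate 2, 1 without control DL1 replicate 3 or irradiated DL1 replicate 3 and 3 without control DL1 replicate 2. The granulocyte sums were 3478 to 3629 and 5250.2 to 6608 FPKM.

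In control cultures 2 of 55 activated targets rose (median 0.036, beside 0.036 over all tested genes), against 13.9% of all tested genes called higher. These were the transferrin receptor gene Tfrc from 85.7 ± 5.32 to 109 ± 6.96 FPKM (0.34 ± 0.083, adjusted p = 0.0101) and the glutamine transporter gene Slc1a5 (0.23 ± 0.072, adjusted p = 0.032). The count was 1 without any 1 of the 6 libraries. Of the repressed targets 1 of 9 rose, Gadd45b (0.25 ± 0.07, adjusted p = 0.0186), and 3 fell, Itgb1 (-0.37 ± 0.055, adjusted p = 3.64e-04), Ndrg1 (-0.44 ± 0.092, adjusted p = 0.00376) and Cebpa (-0.26 ± 0.083, adjusted p = 0.0396), beside 13.9% of all tested genes called higher and 12.3% called lower. The count that rose was 0 without control replicate 1, control replicate 2, control DL1 replicate 1 or control DL1 replicate 2. In irradiated cultures 26 of 55 activated targets rose and 0 fell (median 0.18, beside 0.061 overall), against 24.4% of all tested genes called higher. The 26 included Slc7a5 from 72.2 ± 4.34 to 95.5 ± 3.7 FPKM (0.40 ± 0.051, adjusted p = 8.03e-05), E2f2 (0.50 ± 0.072, adjusted p = 1.86e-04) and Tfrc (0.51 ± 0.083, adjusted p = 4.75e-04). The count was 15 without irradiated replicate 1, 17 without irradiated DL1 replicate 2 or irradiated DL1 replicate 3 and 46 without irradiated replicate 3. Repressed targets fell for 3 of 9, beside 17.0% of all tested genes called lower, with the smallest adjusted p for Ndrg1 from 87.3 ± 9.24 to 48.7 ± 2.74 FPKM (-0.82 ± 0.092, adjusted p = 2.69e-05). Cell cycle genes rose for 22 of 22 in irradiated cultures (median 0.31) and 4 of 22 in control cultures (median 0.12), beside 24.4% and 13.9% of all tested genes called higher. The count in control cultures was 0 without control replicate 1 or control DL1 replicate 1, 1 without control DL1 replicate 3 and 2 without control DL1 replicate 2.

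With DL1, 13 of 14 macrophage markers fell in control cultures and 14 of 14 in irradiated cultures, beside 12.3% and 17.0% of all tested genes called lower. The T cell genes Tcf7, Gata3 and Lck, the tested 3 of 11 T cell markers, were called higher in both, beside 13.9% and 24.4% of all tested genes called higher. Gata3 stood at 0.198 FPKM without and 1.94 with DL1 in control and at 0.206 FPKM without and 1.67 with DL1 in irradiated cultures, so it passed the filter of 1 FPKM only through the DL1 libraries and had to differ to be tested. Tcf7 went from 4.43 ± 1.18 to 38.9 ± 10.8 FPKM (2.87 ± 0.25, adjusted p = 7.61e-06). Summed over all 11, T cell markers were at 5.65 to 8.25 FPKM in culture control and 37.1 to 62.1 in control with DL1, and at 5.48 to 7.39 and 31.7 to 52.6 FPKM in the irradiated pair. Most of these sums was Tcf7, whose means in the irradiated pair were 3.85 and 32.9 FPKM. Of the 11, 7 stayed under a mean of 1 FPKM in both DL1 groups, and Cd4 was listed at 0 in culture irradiated libraries, while no macrophage marker was at 0 in any group. The part of either marker list in the DL1 results for Mycn, Mxd3 and Mxi1 was not tested. Whether DL1 was followed by a different response in control and irradiated cultures is what the limma interaction tested, in which 0 of 55 activated targets were called, beside 0.0748% of all tested genes.

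**Figure D4:**
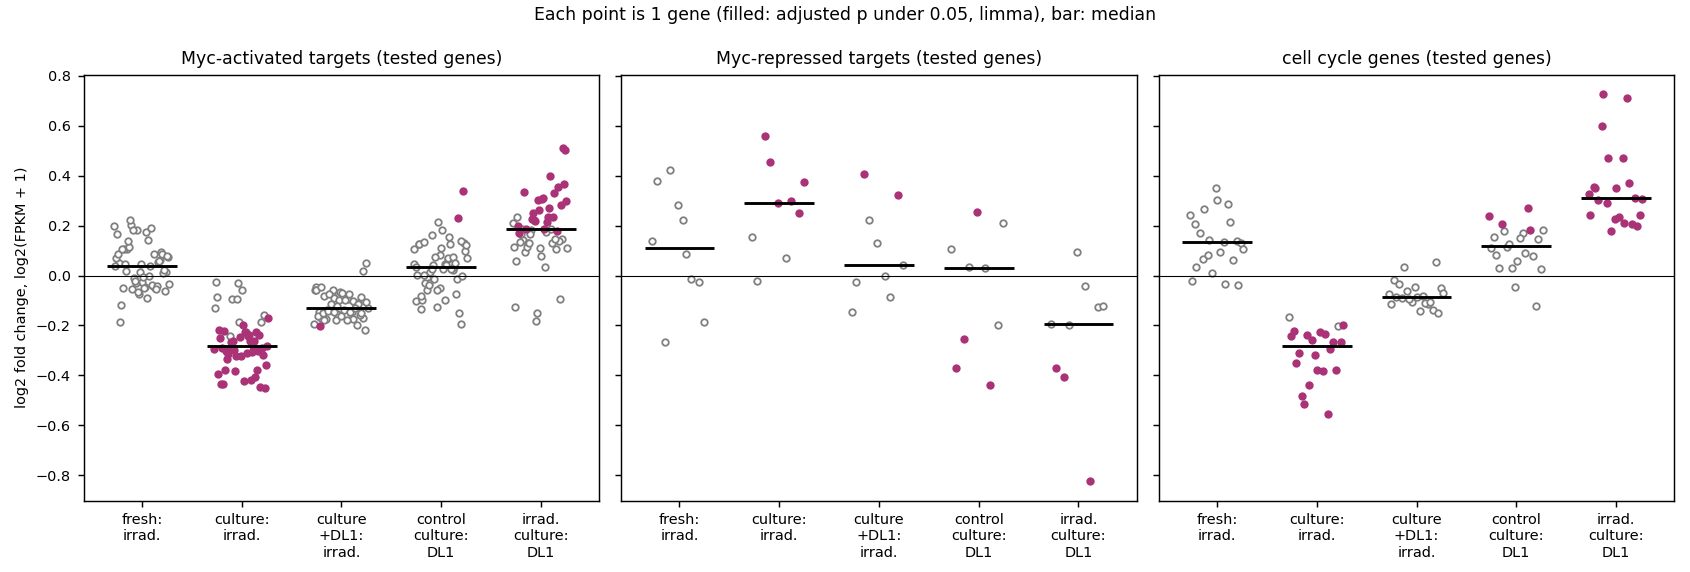
Log2 fold change on log2(FPKM + 1) (y axis) of each tested gene of the activated target, repressed target and cell cycle lists in the 5 comparisons between groups (x axis), with bars for medians and filled points where the adjusted p from limma was under 0.05. The activated targets lie mostly below 0 in the irradiated cultures without DL1, and near 0 in fresh cells.

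The genes most like a member across the 12 cultured libraries were found by Pearson's r of log2(FPKM + 1) among 9233 or 9234 genes with a mean of at least 5 FPKM, as a description without p. The 12 libraries share 4 groups, so the points are not independent. For Myc these were Ppif (r = 0.984), which encodes mitochondrial cyclophilin D, the nucleolar GTPase gene Gnl3 (0.976), also in the activated target list, and Chchd4 (0.972), for mitochondrial protein import. Gnl3 stood at 99.7 ± 5.71 FPKM in culture control and 80.4 ± 12.03 in culture irradiated libraries. For Mycn, Clnk (0.994), Rgs18 (0.985) and a row whose name was turned into a date were nearest. Clnk, an adaptor of immune receptor signalling, stood at 4.2 ± 0.0052 FPKM in culture control and 15.9 ± 2.44 in control with DL1. For Mxd4, Hdc (0.969), the histidine decarboxylase gene of histamine synthesis, Narf (0.95) and Capzb (0.947) were nearest. Hdc stood at 8.35 ± 0.397 FPKM in culture control and 16.5 ± 1.43 in culture irradiated. Mxd1, called in none of the 6 comparisons, was followed less closely, by Tcf25 (0.871), Auh (0.868) and D4Wsu53e (0.852).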

How the data were processed

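RNA of 18 libraries was measured by sequencing. The labels' protocols give miRNeasy extraction and TruSeq library kits. The authors deposited 2 tables of FPKM per gene, for fresh and for cultured cells. The submitters' processing notes name TopHat 1.4.1, Cufflinks 1.3.0, Cuffdiff and hg19, a human build, for these mouse samples. The annotation, any scaling between libraries and the use of strand are not given in the sources used here. FPKM hold no fragment counts, so no count test was run and low values carry an unknown counting error.

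Control samples carry a source name of irradiated cells but titles of control, and the titles were followed. The column of irradiated replicate 1 with DL1 writes its number before DL1. All columns were mapped.

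Genes with a mean of at least 1 FPKM over a table's libraries (12903 fresh, 12025 cultured) entered limma (3.58.1, under R 4.3.3) on the log2(FPKM + 1) scale, using a trend of variance on mean, no replicate block and Benjamini-Hochberg adjustment over all tested genes (threshold 0.05). The 4 cultured groups shared 1 fit. The fit was tested on simulated data, where 97% of 100 genes changed by 1 on the log2 scale were recovered among 12025 genes in the comparison of irradiated with control culture, and 78% among 12903 genes in the fresh comparison. Of the unchanged genes, 12 and 6 were called in these comparisons. Only changes of 1 and 2 were simulated, in 100 genes each. The simulated noise was independent between genes, so recovery where libraries deviate together or many genes change was not tested. The recovery of smaller differences, such as most of those described here, was not tested. The labels do not say whether replicate numbers pair cultures. Between irradiated cultures without and with DL1, the deviations of same-numbered libraries from their group means correlated with r of 0.23, 0.145 and 0.348, all over 0.1. Differently numbered libraries of these 2 groups had r from -0.248 to 0.043. Between culture control replicate 2 and culture irradiated replicate 3, however, r was 0.329. The numbers may thus pair the irradiated cultures without and with DL1, but the data alone do not settle it. The p-values given for that comparison come from the fit without a block unless stated.

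The members, the lists (the Mlx branch, corepressors, coactivators, Myc turnover, Polycomb partners, targets, cell cycle, and markers of 8 cell types) and the tests were chosen with earlier results of these data known. All 10 members are described, and from each other list and comparison up to 3 called genes with the smallest adjusted p. Other genes named singly, and list counts without each library in turn or with a replicate block, were chosen after values were seen. The alternatives tried were a pseudocount of 0.1 or of 5, dropping the filter or raising it to 5 FPKM, median-ratio scaling, no trend, a replicate block, a fit of only the groups compared, and leaving out each library. Promoter letters come from RefSeq (GRCm38.p6), cut to the bases upstream of every annotated exon.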

Additional observations from a re-analysis of the deposited data

How the results depend on the processing

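Across 785 values of the 9 tested members under alternatives, 766 kept their side of the threshold, 15 lost a call, 4 gained one and 0 called values changed sign. When any library was left out, the number of members called stayed 0 in fresh cells, 4 with DL1 in control cultures and 0 in the interaction. The filter at a mean of 5 FPKM left Mycn, with a mean of 3.56 FPKM over the cultured libraries, untested in culture. Without a filter, limma also called Mycl1 with DL1 in control (adjusted p = 0.002) and irradiated cultures (adjusted p = 5.79e-04). Leaving out a library gave 2 to 5 called members in irradiated against control cultures, 0 to 1 with DL1 in both groups, and 3 to 4 with DL1 in irradiated cultures. With DL1 in both groups the count was 0 without a filter and 1 with a mean of at least 5 FPKM. Without a filter Mycn then had an adjusted p of 0.0652 and Mxd4 of 0.0512. Myc in irradiated against control cultures lost its call without a filter (adjusted p = 0.0602) and with only these groups fitted (0.0788), and over all its alternatives the adjusted p ran from 0.00172 to 0.104. Mxd3 gained one there with a mean of at least 5 FPKM (0.047). The log2 difference of Mycn with DL1 ran from 1.18 to 3.08 in control and from 0.7 to 2.53 in irradiated cultures, mostly with the pseudocount. The cause of these shifts was not tested, except that a fit without a filter adjusts over more genes.

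With Mnt added to the Mxd sum, the ratio of Myc to the sum was 5.22 in fresh control, 5.01 in fresh irradiated, 2.83 in culture control, 1.92 in culture irradiated, 2.71 in control with DL1 and 2.06 in irradiated with DL1. With Mycn and Mycl1 added to Myc it was 3.76 in control with DL1 and 2.69 in irradiated with DL1. The share of all tested genes called ran over all alternatives from 0.0204 to 0.138% in fresh cells, from 13.9 to 39.1% in irradiated against control cultures, from 0.874 to 8.34% with DL1 in both groups, from 17.9 to 30.8% and from 27.5 to 50% with DL1 in control and irradiated cultures, and from 0 to 1.57% for the interaction. The split by direction turned over with median-ratio scaling. With DL1 in irradiated cultures, 2931 genes higher and 2043 lower became 2025 and 2460. In control cultures with DL1, 1675 and 1479 became 1254 and 1716. For irradiated against control cultures, 1660 and 1908 became 2004 and 1478. The list counts are not given with that scaling, so the directional shares beside them hold for the main fit only.

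In fresh cells, libraries of the same number correlated in their deviations with r from 0.0572 to 0.211 over 3 pairs, 2 of them over 0.1, and over the 18 cultured pairs r ran from -0.168 to 0.348, 6 of them over 0.1. Whether equal numbers pair libraries is thus not known, also in fresh cells, where all 3 pairs had a positive r. With a replicate block, the members called were 0 in fresh cells, 3 in irradiated against control cultures, 2 with DL1 in both groups, 4 and 3 with DL1 in control and irradiated cultures and 0 in the interaction, as without the block. In irradiated cultures with DL1, the block over all cultures moved no list count by more than 1.5 times except the turnover gene that fell (1 to 0). With only these 2 groups in the blocked fit, a choice made after seeing the data, coactivators that rose went from 4 to 2 and megakaryocyte markers that fell from 3 of 5 to 5 of 7 tested. The depth is unknown, so its limit on low members such as Mycl1 and Mycn cannot be given.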

Other observations

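Markers of cell types not described above differed between cultures too. In irradiated against control cultures without DL1, 5 of 10 mast cell and basophil markers, 3 of 5 tested megakaryocyte and platelet markers and none of 3 T cell markers rose, beside 13.8% of all tested genes called higher. There, 3 of 9 tested LSK and stem cell markers fell, beside 15.9% called lower. The tested erythroid marker and B cell marker, 1 each, were called lower, and the erythroid call was lost without any of control replicates 1, 2 or 3 or irradiated replicates 1 or 2. With DL1 in both groups, 1 of 10 mast cell and basophil markers was called higher (2.50% of all tested genes), and 0 were when any 1 of the 6 libraries was left out. In that comparison 2 of 9 LSK and stem cell markers were called lower (0.640% of all tested genes), and 1 was without control DL1 replicate 1, control DL1 replicate 3, irradiated DL1 replicate 1 or irradiated DL1 replicate 2. Of 5 megakaryocyte markers 0 were called there in limma, and 1 was called lower without irradiated DL1 replicate 3. With DL1, 10 of 13 granulocyte markers fell in control cultures and 12 of 13 in irradiated cultures, beside 12.3% and 17.0% of all tested genes called lower. In irradiated cultures with DL1, 4 of 9 LSK and stem cell markers rose and 1 fell, beside 24.4% called higher and 17.0% lower. Of 5 megakaryocyte markers in that comparison, 3 fell and 1 rose, beside the same shares. The marker that rose was Itga2b, from 11.1 to 23.3 FPKM (adjusted p = 1.04e-05 in limma). The interaction called 2 of the 5 megakaryocyte markers, beside 0.0748% of all tested genes. In fresh cells, 1 of 9 tested megakaryocyte markers was called higher after irradiation, and 0 were without fresh irradiated replicate 1. Of 12 macrophage, 14 granulocyte, 8 mast cell, 7 erythroid, 5 T cell and 8 B cell markers 0 were called in limma, beside 0.101% of all tested genes called, except that 1 erythroid marker was called lower without fresh control replicate 2.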
